A study of Mus musculus with 7 samples.

Results

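The genes described here encode the proteins of the cytosolic ribosome. They were chosen by symbol alone: every row beginning with Rpl or Rps followed by a digit, together with Rplp0, Rplp1, Rplp2 and Rpsa, leaving out symbols that contain "-ps" or begin with Rps6k. The rule found 86 of the 23420 rows of the table. Of these, 46 name core proteins of the large (60S) subunit and 31 name core proteins of the small (40S) subunit. A further 8 name paralogs of core proteins, and 1, Rps19bp1, meets the rule by its name although it encodes a binding partner of Rps19 and not a ribosomal protein.

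The values come from bulk sequencing of total RNA from heart tissue of 7 untreated mice, labelled as 3 to 6 weeks old. The 4 controls had the genotype Ctla4+/+;Pdcd1-/- and the 3 ICI-myocarditis mice had the genotype Ctla4+/-;Pdcd1-/-, so both groups were labelled as lacking Pdcd1 and differed by 1 copy of Ctla4. CTLA-4 and PD-1, the products of these genes, hold T cells back, and immune checkpoint inhibitors (ICI) block them, and the mutant mice served as a model of the heart inflammation that such drugs can cause. The alleles are germline genotypes, no drug was given, and the tissue label reads whole heart while the protocol names cardiac ventricle.

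A ribosome carries 1 copy of most of its proteins, so the genes for them are usually expressed in step. Their mRNAs begin with a terminal oligopyrimidine (TOP) tract, a C followed by a run of C and T, through which the kinase complex mTORC1 and the RNA-binding protein LARP1 control their translation and stability. In heart and skeletal muscle a few of the proteins have a tissue-specific version. The best known is Rpl3l, which replaces Rpl3 in part of the ribosomes of mature muscle fibres and cardiomyocytes.

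The sequences around annotated starts show how much the C and T run near those starts differs within the family. Long runs are in the first 7 lines and short ones in Rplp0, Rpl5, Rpl11 and Rpl3l. RefSeq (GRCm38.p6) gave 77 annotated starts for 65 of the 86 genes. Capitals mark the longest run of C and T within the 30 bases, with the annotated start at base 16, and each sequence reads 5′ to 3′ along the gene.
Rpl7a: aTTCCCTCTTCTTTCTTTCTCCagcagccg
Rpl27a: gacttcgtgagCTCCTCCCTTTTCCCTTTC
Rpl15: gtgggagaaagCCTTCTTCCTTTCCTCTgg
Rpl13a: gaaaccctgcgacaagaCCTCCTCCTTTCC
Rps6: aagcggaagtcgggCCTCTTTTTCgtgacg
Rps26: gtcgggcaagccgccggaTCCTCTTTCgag
Rpl22l1: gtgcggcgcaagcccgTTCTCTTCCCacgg
Rplp0: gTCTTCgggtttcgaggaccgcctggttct
Rpl5: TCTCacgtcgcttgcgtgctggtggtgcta
Rpl11: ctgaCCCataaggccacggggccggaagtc
Rpl3l upstream start: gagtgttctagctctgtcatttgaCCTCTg
Rpl3l downstream start: gtcatcaacagctacagtgCCCCaaatgtc
The Rpl7a window lies at chr2:26910792-26910821 (+ strand), the Rps26 window at chr10:128626492-128626521 (- strand), and the Rpl3l windows at chr17:24727811-24727840 and chr17:24732670-24732699 (+ strand).

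The run reached 21 bases in Rpl7a, 19 in Rpl27a and 17 in Rpl15, and it was 5 in Rplp0, 4 in Rpl5 and 3 in Rpl11. At the annotated starts of Rpl3l it was 5 and 4 bases, and 36 of the 75 starts of the other genes (48%) had a run no longer than 5, so a short run is not particular to Rpl3l. Runs were counted around the RefSeq start, which need not be the base where the mRNA begins. For Rpl11 that start is 136053393, while the gene in GENCODE M21 begins at 136053428 (- strand). A short run here therefore does not show that the mRNA lacks a TOP tract. A run of at least 8 was present at 28 of the 77 starts (36.4%), compared with 12% of all 32851 RefSeq starts searched, the 77 included. The median run was 6 against 4. In the window from 250 bases before to 50 after the start, on both strands, CCGGAAG, the core of an ETS-factor site, was found at 35.1% of the 77 starts and 8.86% of all. AAGATGGC, the core of a YY1 site, was found at 10.4% and 2.75%. The E-box CANNTG was found at 49.4% and 72.3%, and TATAAA was found at 9.09% against 13.6%. These matches of letters do not show that a factor binds there.

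The 250 bases before the upstream start of Rpl3l, at chr17:24727576-24727825 (+ strand, GRCm38.p6), are shown because it is the ribosomal protein gene with the largest fold change in size. Capitals mark CANNTG, which occurs 3 times, nearest 20 bases before the start, and the other 3 motifs searched are not in this stretch.
Rpl3l upstream: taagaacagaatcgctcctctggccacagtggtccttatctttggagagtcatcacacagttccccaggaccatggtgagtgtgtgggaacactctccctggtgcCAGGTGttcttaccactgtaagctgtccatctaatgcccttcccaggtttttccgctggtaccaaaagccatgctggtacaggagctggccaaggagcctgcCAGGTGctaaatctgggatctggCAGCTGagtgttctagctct

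Libraries held 20931730 to 39037176 recovered reads. Pdcd1 was counted in every library despite its label, at 2.50 to 244 normalized counts in controls and 1096 to 1481 in ICI-myocarditis, and Ctla4 at 29.2 to 113 and 251 to 373; the sources used here do not say which part of either gene the alleles remove. Summed T cell markers (7 of 7 tested called higher) ran from 125 to 1590 in controls, with control 2 highest, and from 7134 to 10937 in ICI-myocarditis. Macrophage and monocyte markers (8 of 8 higher) ran from 13151 to 17545 and from 54339 to 83411. Called higher were also 4 of 4 proliferation, 2 of 5 fibroblast, 1 of 4 B cell and 1 of 2 skeletal muscle markers, and called lower were 3 of 5 endothelial and 2 of 4 mural markers. None of 7 cardiomyocyte markers, 2 red blood cell markers or 1 thymus marker was called by limma, with Hba-a1, Hbb-b1 and Foxn1 at 0 in every library. The defining genes of the labelled tissue, such as Myh6 and Tnnt2, were abundant in all 7. In tissue RNA, fewer cells of a type and less RNA per cell cannot be told apart, and since nothing in the labels says more of how animals were housed or collected, p-values measure the spread between these 7 samples.

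A single ribosomal protein gene passed the test between inflamed and control hearts. Values are the authors' normalized counts, read counts that each library's own size factor has scaled, and fold changes set ICI-myocarditis against control after taking log2(normalized count + 1). Of the 86 genes, 82 reached 10 normalized counts in 3 libraries or more and were tested with limma, adjusted by the Benjamini-Hochberg method over all 15258 genes tested. Only Rpl3l passed the threshold of 0.05, as lower, and 0 of 82 were called higher. Over all genes 15.7% were called, 11.7% as higher and 4.00% as lower. At an unadjusted p under 0.05 there were 4 (Rpl3l, Rps26, Rpl3 and Rpl7a), against 30.1% of all genes. The groups did not overlap for 3 of the 82, Rpl3l below and Rpl3 and Rps26 above the controls, where 28.6% of all genes did not overlap, 17.3% lying above and 11.3% below the controls.

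Small positive values prevailed among the rest. The log2 fold change was above 0 for 74 of the 82, with a median of 0.26 beside -0.02 over all genes tested. The 44 tested 60S genes had a median of 0.27 and the 31 tested 40S genes one of 0.29. The shift rested on ICI-myocarditis 1: without it the median was -0.05 and 35 of 82 were above 0. Standard errors ran from 0.183 to 0.615 on the log2 scale. Scaling by total reads in place of the size factors moved the median of all genes to 0.13 and that of the ribosomal protein genes to 0.42.

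**Figure D1:**
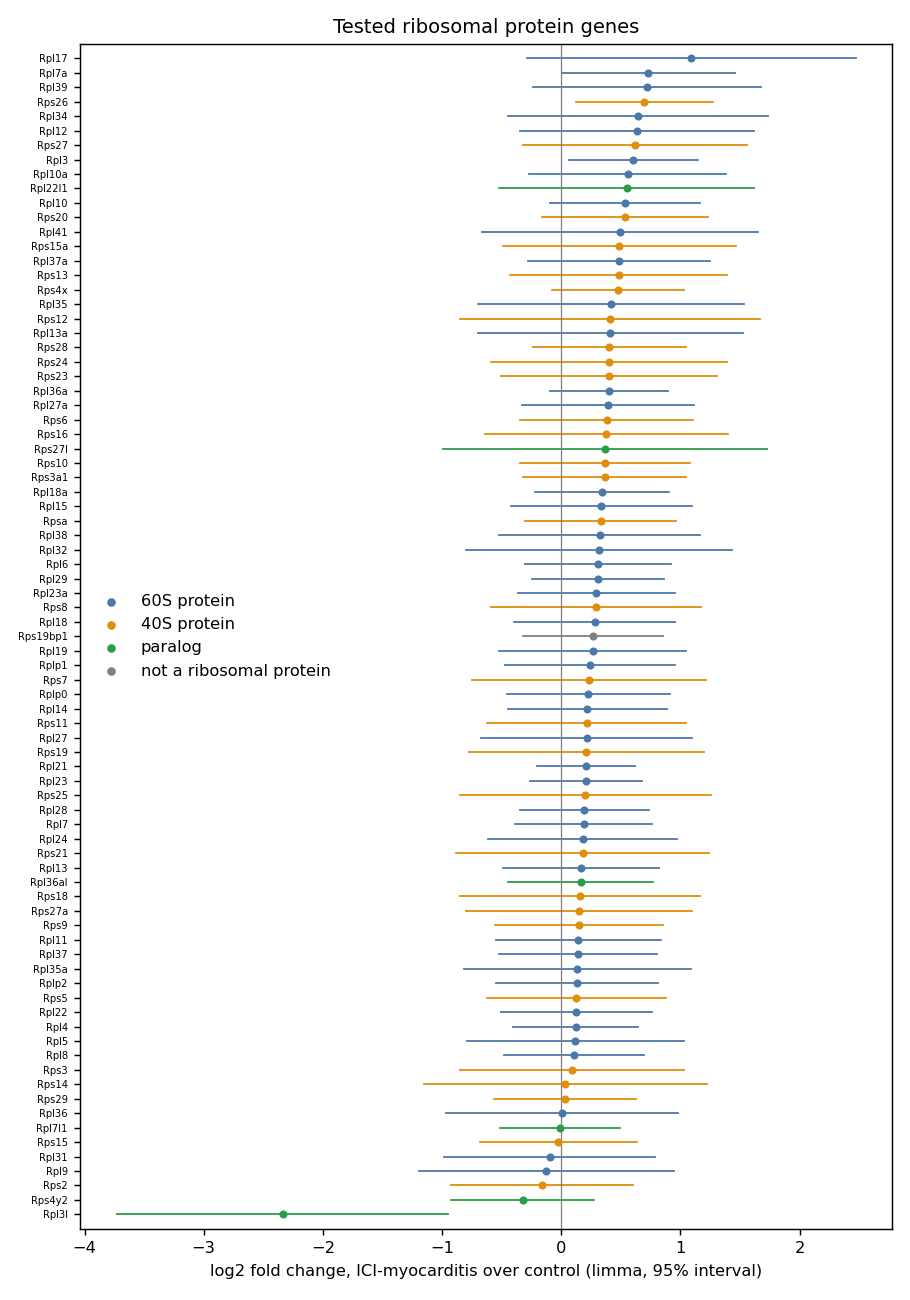
Log2 fold change of 81 of the 82 tested genes (Rps19bp1 included, ordered by value), ICI-myocarditis over control, with the 95% interval from limma; colours give the subunit or class. Most intervals span 0, 74 points lie above 0, and Rpl3l stands alone at -2.34.

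Rpl3l, the muscle version of the large-subunit protein that sits near the peptidyl transferase centre, fell in the inflamed hearts. Its normalized counts were 5497, 4578, 5000 and 7683 in the controls, in the order of their replicate numbers, and 2100, 2117 and 300.3 in the ICI-myocarditis libraries. Every ICI-myocarditis library lay below every control, and ICI-myocarditis 3 was far below its group. The means were 5690 ± 1381 (SD, n = 4) and 1506 ± 1044 (SD, n = 3). The fitted log2 difference was -2.34 (SE 0.615, 95% interval -3.73 to -0.95), with a limma adjusted p of 0.0323. In the authors' deposited table the log2 fold change of Rpl3l is -1.92 with an adjusted p of 0.00360, and it is the 1 gene of this family with an adjusted p under 0.05 there.

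The call rested on a narrow margin. It was kept in 14 of 19 alternative settings and lost with edgeR on the recovered reads (log2 fold change -1.92, adjusted p = 0.0588), with limma without trend or robust variance (adjusted p = 0.0510), and without control 1 (0.0820), control 3 (0.0783) or control 4 (0.0624), each by limma. The direction was the same in all 19. Without ICI-myocarditis 3 the log2 fold change was -1.40 with a limma adjusted p of 0.0249, a smaller fall that stayed past the threshold. Without control 2, the control with the most T cell marker counts, it was -2.43 (limma adjusted p = 0.0298).

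Rpl3, the general form of the same protein, had the opposite sign. Its normalized counts were 4731, 6878, 5849 and 6362 in controls and 10651, 7203 and 9409 in ICI-myocarditis. All 3 ICI-myocarditis libraries lay above all 4 controls, by a narrow gap in the case of ICI-myocarditis 2. The log2 fold change was 0.60 (SE 0.240), and the limma adjusted p of 0.126 missed the threshold. It passed with DESeq2 on the recovered reads (0.0434) and in none of the other 18 settings. In GENCODE M21 (GRCm38) Rpl3l spans chr17:24727820-24736143 (+ strand) and Rpl3 spans chr15:80077791-80091868 (- strand).

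The balance within the pair was examined in each library. Rpl3l minus Rpl3, as a difference of log2 normalized counts, was 0.22, -0.59, -0.23 and 0.27 in controls and -2.34, -1.77 and -4.96 in ICI-myocarditis. The groups did not overlap and differed by -2.94. For every 100 normalized counts of Rpl3 there were 116, 66.6, 85.5 and 121 of Rpl3l in controls, and 19.7, 29.4 and 3.19 in ICI-myocarditis. Per kilobase of transcript, Rpl3l made up 39.5% to 54.3% of the summed level of the pair in controls and 3.04% to 22.4% in ICI-myocarditis. The exact two-sided permutation p was 0.0286, the smallest that the 35 splits of 4 and 3 libraries allow, and 0.0857 after Benjamini-Hochberg adjustment over 6 pairs. As the general form, Rpl3 can be read from any cell of the tissue, and macrophage and T cell marker counts were higher in ICI-myocarditis. Whether the balance changed within cardiomyocytes was not tested.

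Rpl3l is a cardiomyocyte transcript, so the markers of that cell are given beside it. The 7 cardiomyocyte markers summed to between 1409714 and 3095272 normalized counts in controls and between 774848 and 1525487 in ICI-myocarditis, with a median log2 fold change of -0.92. Rpl3l relative to the mean log2 level of these markers was -5.41, -4.78, -5.36 and -5.28 in controls and -5.92, -6.14 and -7.85 in ICI-myocarditis. Relative to the markers it was thus below every control in each of the 3 inflamed hearts, by a smaller amount than in the unadjusted values. The 4 skeletal muscle markers, genes of a tissue that also expresses Rpl3l, summed to between 4274 and 14034 in controls and between 6537 and 12127 in ICI-myocarditis. Nearly all of this sum was Acta1, at 4245 to 13902 and 6497 to 11992, so it says little about the other markers. Tnnt3, at 6.26 to 28.2 in controls and 37.9 to 129 in ICI-myocarditis, was called higher by limma. Myh4 and Myh1 did not pass the filter. Both groups carry the same age range in the labels, and each animal's own age is not given in the sources used here.

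**Figure D2:**
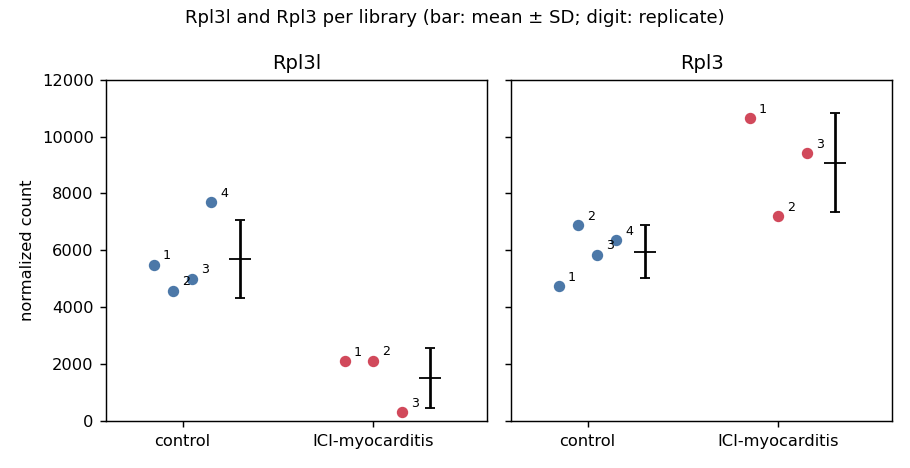
Normalized counts of Rpl3l (left) and Rpl3 (right) in each library, 4 controls and 3 ICI-myocarditis, with the mean ± SD beside the points and the replicate number at each point. Rpl3l lies between 4578 and 7683 in controls and between 300.3 and 2117 in ICI-myocarditis, while Rpl3 lies between 4731 and 6878 and between 7203 and 10651.

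The other paralog pairs differed less. Rpl7l1, a nucleolar relative of the 60S protein Rpl7, took log2 differences from Rpl7 of -2.90, -2.76, -2.86 and -2.89 in controls and -2.95, -3.02 and -3.19 in ICI-myocarditis. These groups did not overlap, by a gap smaller than the spread within ICI-myocarditis, and the difference was -0.20 (exact permutation p = 0.0286, adjusted over 6 pairs 0.0857). Rpl7l1 itself stood at 1378 ± 267 (SD, n = 4) and 1373 ± 322 (SD, n = 3) normalized counts. Rpl7 stood at 9995 ± 2152 and 11306 ± 1856.

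Rps4y2 is the older symbol of Rps4l, which RefSeq lists as a transcribed pseudogene related to the X-linked 40S gene Rps4x. Its normalized counts were 900, 611, 418 and 764 in controls and 480, 532 and 539 in ICI-myocarditis. The groups overlapped because control 3 was lowest of all. Its difference from Rps4x shifted by -0.80 on the log2 scale (exact permutation p = 0.0571, adjusted 0.114). Rps4x stood at 8733 ± 1436 (SD, n = 4) and 12160 ± 2283 (SD, n = 3). Reads shared with Rps4x and its copies could be split between these rows, so both values are uncertain.

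Rpl36al, an intron-poor copy on another chromosome of the X-linked Rpl36a with a nearly identical protein, shifted by -0.24 relative to it (exact permutation p = 0.0857, adjusted 0.129). Rpl36al stood at 1532 ± 473 (SD, n = 4) and 1693 ± 441 (SD, n = 3), and Rpl36a at 1553 ± 317 and 2042 ± 407. Rpl22l1, which can stand in for the 60S protein Rpl22, shifted by 0.42 relative to Rpl22 (exact permutation p = 0.371, adjusted 0.446). Its normalized counts ran from 375 to 1200 in controls and were 2030, 773 and 623 in ICI-myocarditis, with 1 library of 3 above all controls. Rps27l, a p53-responsive relative of Rps27, shifted by -0.25 (exact permutation p = 0.657, adjusted 0.657), against a Rps27 row that holds almost no reads. Its own normalized counts spread widely, from 622 to 2486 in controls, with 3683, 1280 and 731 in ICI-myocarditis.

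The 4 genes with the highest fold changes were Rpl17, Rpl7a, Rpl39 and Rps26, and none passed the threshold. Rpl17, a 60S protein at the exit of the nascent chain tunnel, had 606, 1139, 1351 and 2064 normalized counts in controls and 7536, 1196 and 1757 in ICI-myocarditis. A single library, ICI-myocarditis 1, set its log2 difference of 1.09 (SE 0.611; adjusted p = 0.269 by limma), which was 0.30 without that library. Rpl39, the small protein that lines the exit tunnel, repeated this shape with 9115, 3623 and 3134 against 1713 to 4442 in controls (a log2 difference of 0.72; adjusted p = 0.293 by limma), and its value was 0.24 without ICI-myocarditis 1.

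Rps26, a 40S protein at the mRNA exit channel, showed a more even pattern. Its normalized counts were 2812, 1913, 2545 and 3965 in controls and 4825, 4157 and 4251 in ICI-myocarditis. The 3 ICI-myocarditis libraries lay close together and above every control, with control 4 only just below them. The log2 difference was 0.70 (SE 0.255; adjusted p = 0.0996 by limma). It passed the threshold in 3 of 19 alternative settings, namely total-read scaling (0.0186), the correction for transcript length and GC content (0.0467) and the fit without control 4 (0.0320), all by limma. Rpl7a, a 60S protein, had 2436, 1522, 2704 and 2899 in controls and 6076, 2752 and 3403 in ICI-myocarditis (a log2 difference of 0.73; adjusted p = 0.165 by limma), with ICI-myocarditis 2 inside the control range. Without ICI-myocarditis 1 its log2 difference was 0.40.

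Toward the low end, after Rpl3l, were Rps4y2 at -0.33 and Rps2 at -0.16 on the log2 scale, with limma adjusted p-values of 0.458 and 0.797. Rps2, one of the most abundant rows, ran from 11208 to 24232 normalized counts in controls and from 9981 to 18743 in ICI-myocarditis. The groups overlapped in both cases, and the sign for Rps2 turned when control 4 or ICI-myocarditis 3 was left out.

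Proteins with roles beyond the ribosome's frame showed no call either. The stalk proteins that recruit elongation factors had log2 fold changes of 0.23 for Rplp0, 0.24 for Rplp1 and 0.13 for Rplp2, and Rpsa, also known as a laminin receptor, one of 0.33. Rplp0, often used as a reference gene, stood at 20541 ± 5401 (SD, n = 4) and 24021 ± 6369 (SD, n = 3) normalized counts. Rpl5 and Rpl11, which bind MDM2 together with 5S rRNA when ribosome assembly fails, had values of 0.12 and 0.14. Rpl13a, which takes part in silencing inflammatory transcripts in myeloid cells, ran from 6764 to 18162 in controls and was 35617, 10874 and 10123 in ICI-myocarditis, so that 1 library lay above and the others inside the control range. Rps6, the substrate of S6 kinases, had 0.38, Rps19, the gene most often mutated in Diamond-Blackfan anaemia, 0.21, and Rps27a, which is made as a fusion with ubiquitin, 0.15 on the log2 scale. The lowest limma adjusted p-value among these 10 genes was 0.475, for Rps6.

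The larger movement of these genes was between libraries of the same group. Together they took 1.15%, 1.73%, 1.71% and 1.93% of the reads of controls 1 to 4 and 3.38%, 1.68% and 1.72% of ICI-myocarditis 1 to 3. The means were 1.63% ± 0.336 (SD, n = 4) and 2.26% ± 0.970 (SD, n = 3), with 2 of the 3 ICI-myocarditis libraries inside the control range. The extremes were the same for both subunits: the 60S genes ran from 0.628% to 1.02% in controls with 1.78% in ICI-myocarditis 1, and the 40S genes from 0.489% to 0.862% with 1.55%.

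Taking the 81 tested genes without Rpl3l, Rps19bp1 among them, the median deviation of a library from each gene's mean over the 7 libraries was -0.52, -0.31, -0.08 and 0.40 on the log2 scale in controls 1 to 4. It was 0.76, -0.12 and -0.17 in ICI-myocarditis 1 to 3. ICI-myocarditis 1 was the highest of all 7 libraries for 69 of the 82 genes and control 1 the lowest for 51, while control 4 was the highest control for 78. The 2 extreme libraries of the set thus belong to different groups, and control 4 stood above ICI-myocarditis 2 and 3.

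**Figure D3:**
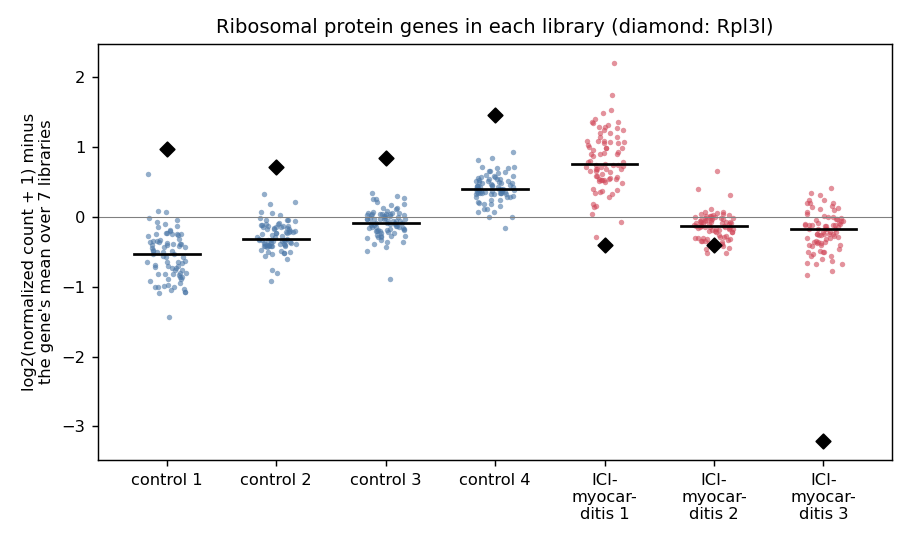
Deviation of each tested ribosomal protein gene from its own mean over the 7 libraries (log2), 1 point per gene, with the median of 81 genes as a line and Rpl3l as a diamond. The 81 include Rps19bp1. The medians run from -0.52 in control 1 to 0.76 in ICI-myocarditis 1, and Rpl3l is above 0 in every control and below 0 in every ICI-myocarditis library.

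The genes differed in how far they took part. ICI-myocarditis 1 exceeded the mean of the other ICI-myocarditis libraries for 78 of the 81, by a median of 0.99 and by more than 1 for 36 of them on the log2 scale. The excess was 2.38 for Rpl17 and 2.27 for Rps12, a 40S protein, and it was -0.20 for Rpl4 and -0.11 for Rpl21, both 60S proteins. Rps12 had 20420 normalized counts in ICI-myocarditis 1 against 4545 and 3935 in the others, whereas Rpl4 had 11702 against 11916 and 15222. Among controls, control 4 exceeded control 1 for 80 of the 81, by a median of 0.90. The contrasts share no library, and across the 81 genes Pearson's r was 0.81 and Spearman's rho 0.82, beside 0.49 and 0.56 across 15176 other genes. These correlations are across genes, which are not independent replicates, and the libraries were picked after their values were seen.

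**Figure D4:**
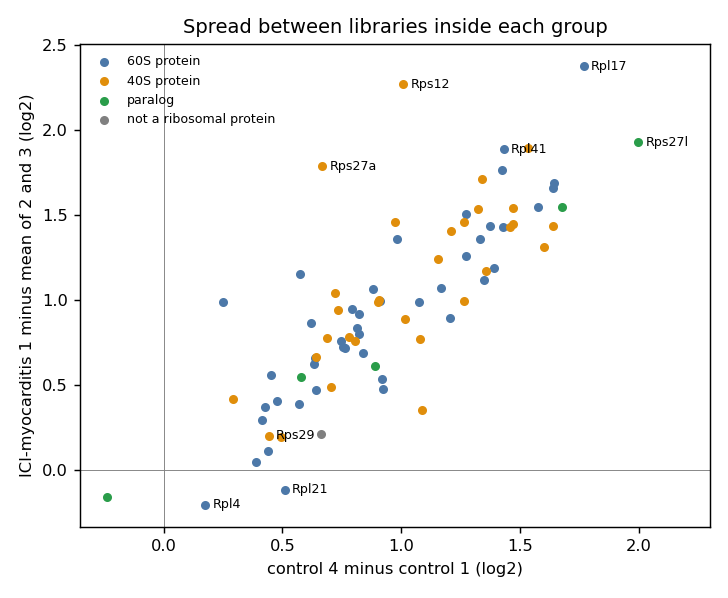
Excess of ICI-myocarditis 1 over the mean of ICI-myocarditis 2 and 3 (vertical, log2) against the excess of control 4 over control 1 (horizontal, log2) for 81 ribosomal protein genes, coloured by class. The 81 include Rps19bp1. Genes such as Rpl17 and Rps27l are high on both axes, and Rpl4 lies near 0 on both.

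Ribosomal protein transcripts are short, and other short transcripts moved with them. The 970 other tested genes with transcripts under 1000 nucleotides had library medians of -0.15, -0.09, 0.07 and 0.19 in controls and 0.33, -0.03 and -0.19 in ICI-myocarditis, on the same scale. The 3080 genes over 5000 nucleotides had 0.12, 0.07, -0.01 and -0.09, then -0.18, 0.01 and 0.09, with the opposite sign to the short genes in all 7 libraries. After a correction of each library for transcript length and GC content, the medians of the ribosomal protein genes were -0.45, -0.14, -0.08 and 0.18 in controls and 0.52, -0.09 and 0.05 in ICI-myocarditis. The spread between ICI-myocarditis 1 and control 1 was therefore smaller after this correction but remained. Length here is that of the longest annotated protein-coding transcript, such as 5179 nucleotides for Rps15a and 3706 for Rps20. It need not be the length of the transcript expressed in the heart. Whether a correction by expressed transcripts would leave the same spread was not tested. Among the 81 genes themselves, the excess of ICI-myocarditis 1 had a Spearman's rho of -0.11 with this annotated length and -0.13 with GC content. The same limit holds for both values. Rn45s, the ribosomal RNA precursor, took 1.52% to 4.02% of reads in controls and 4.07% to 4.72% in ICI-myocarditis. It was 4.07% in ICI-myocarditis 1, the lowest of its group, and its part in the spread was not tested.

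**Figure D5:**
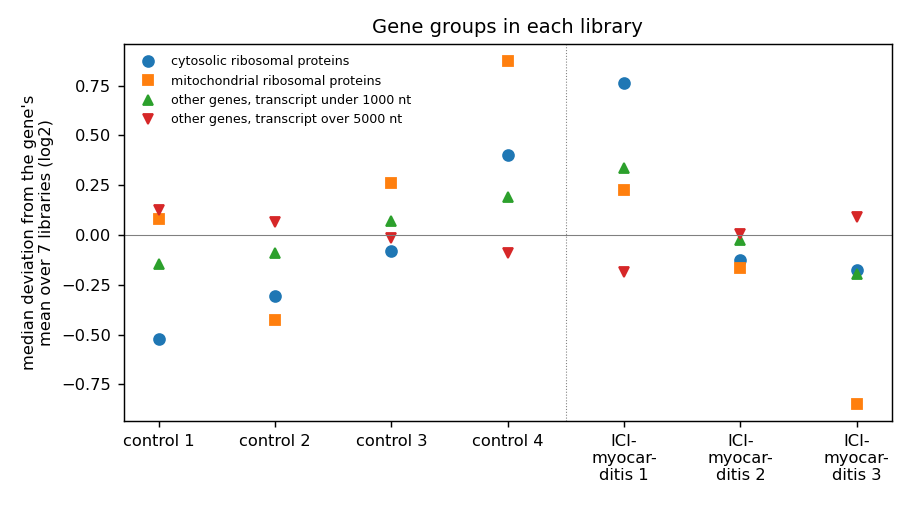
Median deviation from each gene's mean over 7 libraries (log2, vertical) in each library for 81 cytosolic ribosomal protein genes, 76 mitochondrial ribosomal protein genes, 970 other genes with transcripts under 1000 nucleotides and 3080 over 5000 nucleotides. The 81 include Rps19bp1. The cytosolic set peaks in ICI-myocarditis 1 at 0.76, and the mitochondrial set runs from 0.87 in control 4 to -0.85 in ICI-myocarditis 3.

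Some rows carry few or no reads, so little can be read from them. Rpl26 and Rpl10l were listed at 0 in all 7 libraries, Rpl30 had 3.02 to 16.3 normalized counts and Rpl39l 0 to 13.6, and these 4 did not pass the filter. Rpl34 and Rps27 passed it with 8.93 to 28.6 and 10.1 to 26.6 normalized counts. Both therefore count among the tested genes, and Rps27 also enters a paralog pair. Rpl26, Rpl30, Rpl34 and Rps27 encode proteins that every ribosome contains, so these levels are uncertain; many ribosomal protein genes have near-identical processed copies, between which counting can divide or drop reads. Rps19bp1, the row that is no ribosomal protein, stood at 181 ± 52.4 (SD, n = 4) and 212 ± 18.6 (SD, n = 3), with a log2 fold change of 0.27 (limma adjusted p = 0.547).

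The genes around the ribosome were counted in the same fit, in which 15.7% of all genes were called and 30.1% had an unadjusted p under 0.05. Among 23 other TOP-type genes of translation, such as elongation factors, 0 were called and the median log2 fold change was 0.11; among 35 genes of ribosome biogenesis, 0 were called and the median was 0.10. At an unadjusted limma p under 0.05 there were 2 and 1. Of 17 genes of RNA polymerase I and 5S transcription and its regulators, Myc, a transcription factor that drives ribosome synthesis, rose. Its normalized counts were 111, 83.9, 133 and 110 in controls and 282, 483 and 701 in ICI-myocarditis (a log2 difference of 2.07 ± 0.327, SE; adjusted p = 0.00495 by limma). The other 16 were not called, and the median of the list was -0.02.

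Of 19 genes of mTORC1 and TOP control, 2 passed the threshold, a share no higher than the 15.7% called over all genes. Deptor, an inhibitor within the mTOR complexes, fell from 474, 465, 501 and 525 to 216, 251 and 275 normalized counts (a log2 difference of -0.99 ± 0.186, SE; adjusted p = 0.00866 by limma). Sesn2, a leucine sensor that restrains mTORC1, rose from 170, 171, 156 and 180 to 299, 310 and 256 (a log2 difference of 0.76 ± 0.204, SE; adjusted p = 0.0350 by limma). In both, all ICI-myocarditis libraries lay on one side of all controls. The same held for Mtor, which was lower but not called (adjusted p = 0.352 by limma). The groups thus did not overlap for 3 of the 19 genes, where 28.6% of all genes did not overlap. The Deptor call was lost only under the replicate block among 19 settings (adjusted p = 0.0607 and, with the length and GC correction, 0.0608). The Sesn2 call was kept in 12 of 19 and lost under the block and without control 1 (0.0718), control 3 (0.103) or ICI-myocarditis 1 (0.108), 2 (0.144) or 3 (0.0763), all by limma, while Myc was called in all 19. Of 14 snoRNA host genes listed, 9 are rows of the table, with 0 called, 2 at an unadjusted limma p under 0.05 and a median of 0.46. The host gene Gas5, itself a TOP transcript, had 658 to 961 normalized counts in controls and 1090 to 1366 in ICI-myocarditis (a log2 difference of 0.63; adjusted p = 0.0680 by limma), and passed the threshold in 3 of 19 alternative settings.

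The genes of the mitochondrial ribosome had mostly negative values, none past the threshold. Of its 76 protein genes, 70 had a log2 fold change below 0, with a median of -0.45, against 8 of 82 for the cytosolic genes. None passed the threshold with limma, and 14 had an unadjusted p under 0.05, where 30.1% of all genes did. The lowest limma adjusted p-value was 0.0616, for Mrpl18, with 2653 to 4357 normalized counts in controls and 2216, 1855 and 938 in ICI-myocarditis, and it passed in 4 of 19 alternative settings. Its levels followed another order of libraries than the cytosolic genes: the median deviation of the mitochondrial set was 0.08, -0.43, 0.26 and 0.87 in controls and 0.22, -0.17 and -0.85 in ICI-myocarditis, and the cytosolic peak in ICI-myocarditis 1 was not repeated. Cardiomyocyte marker sums were also highest in control 4 and lowest in ICI-myocarditis 3, and their part in the mitochondrial values was not tested.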

How the data were processed

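One table of 23420 gene rows and 7 libraries was used, with groups and replicate numbers from the labels. STAR (version 2.7.3) and the builds GRCm38 and mm10 are named in the submitters' processing notes; the counting program, annotation and use of strand are not given in the sources used here. The deposited signal of each library is a read count over a size factor that the whole library shares, which the values show. For control 1 the step is so near 1 that whole multiples are a weaker sign of this than in the other 6 libraries. The table also holds the authors' log2 fold changes, the score of their test, and p-values, under headers as DESeq2 writes them, per the file headers.

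limma (3.58.1, R 4.3.3, trend and robust variance) was fitted to log2(normalized count + 1) of the 15258 genes that reached 10 normalized counts in 3 libraries or more. For paralog pairs the test was an exact permutation, two-sided, of the 35 ways to split the libraries. edgeR (4.0.16) and DESeq2 (1.42.0) were run on recovered reads among 19 alternative settings, which also covered pseudocount, filter, scaling, a correction for transcript length and GC content, a replicate block and leaving out each library. The limma, edgeR and DESeq2 fits were also run on simulated counts, drawn gene by gene without shifts that genes share. That simulation did not cover the permutation test or library shifts like those described here. Positions, lengths (98.3% of rows matched) and snoRNAs came from GENCODE M21, start sequences from RefSeq GRCm38.p6. The length and GC content of a gene were those of its longest protein-coding transcript, or of its longest transcript where it had none. The sources name no molecular identifiers, and reads without them overstate the molecules sampled.

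Named genes are both members of each paralog pair, called genes, the 4 highest and 4 lowest fold changes, rows failing the filter, 10 genes of known side roles, and in the other lists all called genes; others were chosen after their values were seen, and 1 gene that met the rule is not reported here. The members and lists were chosen with earlier results of these data known.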

Additional observations from a re-analysis of the deposited data

Results flagged for a closer look

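Among the 44 results examined in the 4 controls for a single library far from the others, 1 stood out. Rps12, a 40S protein, had 3034 normalized counts in control 1 against 7020, 6423 and 6104 in controls 2 to 4. On the log2 scale the gap from control 1 to its nearest neighbour was 0.833 of the range of the group, past the critical value for 4 samples by a small margin. Chance flags about 1 in 20 such groups. Control 1 was also the lowest of all 7 libraries for 51 of the 82 tested genes, Rps19bp1 included.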

How the results depend on the processing

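Of the ribosomal protein genes, 1 was called in the reported fit. The count was 2 with total-read scaling (Rpl3l and Rps26), 2 with DESeq2 (Rpl3l and Rpl3), 2 with the length and GC correction (Rpl3l and Rps26), and 0 with edgeR and with limma without trend or robust variance, where 5 and 3 had an unadjusted p under 0.05. Leaving out single libraries gave 0 to 1: 0 without control 1 or control 3, and Rps26 in place of Rpl3l without control 4. Calls in the other lists numbered 3, against 6 with total-read scaling, 13 with DESeq2, 10 with the length and GC correction, and 2 to 15 with single libraries left out, the 15 without control 2. Over all genes the calls ran from 986, without ICI-myocarditis 3, to 3441 with DESeq2.

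Same-numbered libraries had correlations of -0.27, -0.21 and -0.08, and differently numbered ones ran from -0.48 to 0.45. These values show no pairing by replicate number, but with so few libraries they cannot exclude it. With the replicate block, which leaves control 4 without a partner, 1 ribosomal protein gene was called and the median log2 fold change was 0.46. Signs turned under the block for Rpl7l1 (0.11, and 0.10 with the length and GC correction added) and Rps2 (0.056), and with total-read scaling for Rpl7l1 (0.15). With single libraries left out, the log2 fold change spanned 0 for Rpl4 (-0.0020 to 0.19), Rpl5 (-0.30 to 0.34), Rpl11 (-0.16 to 0.32), Rpl13a (-0.18 to 0.73), Rpl22 (-0.16 to 0.33), Rpl36al (-0.041 to 0.35), Rpl7l1 (-0.19 to 0.11), Rplp1 (-0.041 to 0.42), Rplp2 (-0.10 to 0.35), Rps2 (-0.38 to 0.072), Rps12 (-0.35 to 0.84), Rps19 (-0.30 to 0.47), Rps27a (-0.45 to 0.52) and Rps27l (-0.27 to 0.89), and the difference Rps27l minus Rps27 did so too (-0.78 to 0.13). The cause of these changes was not tested. With 1 library left out, the exact test of the pairs could not go below 0.0667. Counting error is largest for the rows with few reads, Rpl30, Rpl34, Rps27 and Rpl39l; what limits the other rows was not tested.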

Other observations

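Several ribosomal protein genes carry small nucleolar RNAs (snoRNAs), the guides of ribosomal RNA modification, in their introns. By GENCODE M21, 29 of the 80 tested genes other than Rpl3l with a matched position hold at least 1, and Rpl4 holds 5. The excess of ICI-myocarditis 1 over the other ICI-myocarditis libraries had a median of 0.99 on the log2 scale in the 29 hosts and 0.99 in the 51 others. Median log2 fold changes between groups were 0.33 and 0.23. These values were compared after the spread between libraries had been seen, and no test was made.

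The 5 rows with "-ps" in their symbol, pseudogenes left out by the rule, held at most 0.00119% of the reads of any library, with the highest share in ICI-myocarditis 1, the library in which the ribosomal protein genes were also highest.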
